A study of Homo sapiens with 20 samples.

Results

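HOXB13 transcripts were at or near 0 in 6 of 20 biliary tract cancer cell lines and present in the other 14, and all other genes were compared between those 6 and those 14 lines. The lines were chosen by their measured HOXB13 level in counts per M counts of the library (CPM, M for mega): under 0.5 CPM a line was taken as without HOXB13, and at 1 CPM or more as expressing it. The 6 lines without HOXB13 were HuCCT1, HuH28, SNU-1079 and TKKK from intrahepatic bile duct cancer, and G415 and TGBC2TKB from gallbladder cancer. The 14 lines expressing HOXB13 were 5 gallbladder lines (TGBC14TKB, SNU-308, OCUG-1, NOZ, Mz-ChA-2), 5 extrahepatic bile duct lines (EGI-1, Sk-ChA-1, SNU-1196, SNU-245, TFK-1), 3 lines from the ampulla of Vater (SNU-478, SNU-869, TGBC18TKB) and OZ, which is labelled with both bile duct sites. The split therefore follows anatomical site: 4 of 4 intrahepatic lines lacked HOXB13, and gallbladder was the one site with lines of both classes. Of the 6 lines without HOXB13, 2 came from metastatic disease and 4 from primary tumours, against 5 and 9 of the 14 expressing lines. RIKEN supplied 4 of the 6 lines without HOXB13 and 2 of the 14 expressing lines.

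Poly(A) RNA of established lines was sequenced, with 1 library per line. All were grown in the same serum-supplemented medium, and the labels name no treatment. Replication is by line, so each SE or SD given here rests on how much the lines differ. No line had HOXB13 removed or added, so a difference between the classes is a difference between sets of lines. In a bulk library of a culture, fewer cells with a transcript and less of it per cell cannot be told apart.

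HOX genes encode homeodomain transcription factors that lie in 4 clusters and give cells their position along the head to tail axis of the embryo. HOXB13 is the outermost gene of the HOXB cluster, is normally active in the hindgut and the urogenital tract, and is best known as a marker and cofactor of androgen receptor signalling in the prostate. Its product binds AT-rich sites and acts with partners such as the MEIS proteins.

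HOXB13 chose the classes, so its levels are given with no test. It had 0 counts in G415, HuCCT1, HuH28, SNU-1079 and TKKK and 1 count in TGBC2TKB, which is 0.0861 CPM with an exact Poisson 95% interval of 0.00218 to 0.480 CPM. With 3 counts as the limit that a count of 0 leaves, HOXB13 could have reached 0.210 CPM in G415 to 0.261 CPM in TKKK unseen in the other 5 libraries. The 14 expressing lines held 21 to 166 counts, or 1.77 CPM in OZ to 14.7 CPM in SNU-478, with a median of 6.39 CPM. The line nearest the threshold from above was OZ, whose interval was 1.10 to 2.71 CPM, and the next were SNU-308 at 2.08 and TFK-1 at 2.59 CPM. Among gallbladder lines the range was 0 CPM in G415 to 12.1 CPM in TGBC14TKB. HOXB13 was a low transcript even where present. Intervals and floors cover counting error only.

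**Figure D1:**
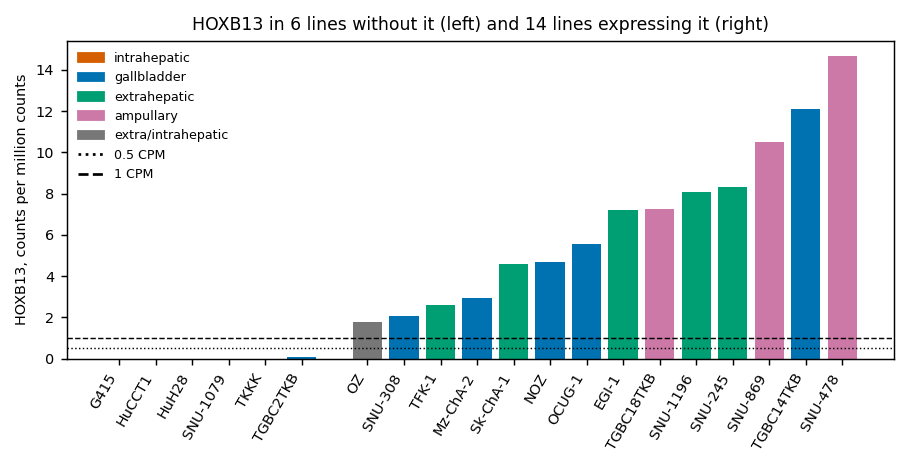
HOXB13 level of each line in CPM of the unscaled library total, 1 bar per line coloured by anatomical site, with dotted and dashed lines at 0.5 and 1 CPM. The 6 lines without HOXB13 stand on the left at 0 to 0.0861 CPM, and the 14 expressing lines run from 1.77 to 14.7 CPM.

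Library depth did not separate the classes beyond the spread between lines. Totals averaged 12.5 ± 1.37 M counts in the 6 lines without HOXB13 and 12.7 ± 1.32 M in the 14 expressing lines (SD; exact permutation test, two-sided, p = 0.819). The 10 highest genes took 4.30% ± 1.15 of the counts in lines without HOXB13 and 3.58% ± 0.549 in expressing lines (exact permutation p = 0.0874). KRT19, a keratin of bile duct epithelium, was at 1.05 CPM in HuH28 and at 188 to 1946 CPM in the other 5 lines without HOXB13, against 150 to 6999 CPM in the expressing lines. HuH28 thus had almost no KRT19. Other genes on the bile duct list were not all low there, with SOX9 at 142 CPM and PKD2 at 153 CPM. The mean over that list, in log2 units centred on each gene, was -2.59 in HuH28, the lowest of all lines.

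Among the 15172 genes tested, 30 were called higher in lines without HOXB13 (0.198% of those tested) and 1 lower (0.00659%), 0.204% in all, at a Benjamini-Hochberg adjusted p under 0.05 in edgeR's quasi-likelihood test. At an unadjusted p under 0.05 there were 1598 genes (10.5%), 913 higher (6.02%) and 685 lower (4.51%). By p the first 12 were ALPK2, MMP2, COL5A2, TPM1, THBS2, TENM2, FBN1, FLCN, CYTH3, PRKG1, CCN1 and EDEM2. The count rested on single lines: without HuH28 it was 2 higher and 0 lower, and without TKKK it was 100 higher and 4 lower. Without any one of TGBC2TKB, EGI-1, OZ, Sk-ChA-1, SNU-1196, SNU-245, SNU-478, SNU-869, TFK-1, TGBC14TKB and TGBC18TKB, 14 to 18 genes were called higher. Called lower were 3 genes without OCUG-1, 2 without HuCCT1, NOZ or Sk-ChA-1 and 0 without SNU-1079. ALPK2 and MMP2 were the 2 genes called without HuH28, and they passed with every other line left out in which they could be tested. COL5A2, TPM1, THBS2, TENM2, FBN1, FLCN, CYTH3 and PRKG1 lost their call without HuH28 alone, with adjusted p of 0.0759 for TPM1, 0.0765 for CYTH3 and 0.627 for THBS2. CCN1 and EDEM2 lost it without HuH28 and without TGBC2TKB. DESeq2 called 146 higher and 106 lower, and limma-voom called 6 higher and 0 lower. Of the 31 genes, DESeq2 called 26 and gave no p for others, THBS2 and TENM2 among them. Limma-voom called 3 of the 31, FLCN, TPM1 and CYTH3, with adjusted p of 0.329 for ALPK2 and 0.597 for MMP2.

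**Figure D2:**
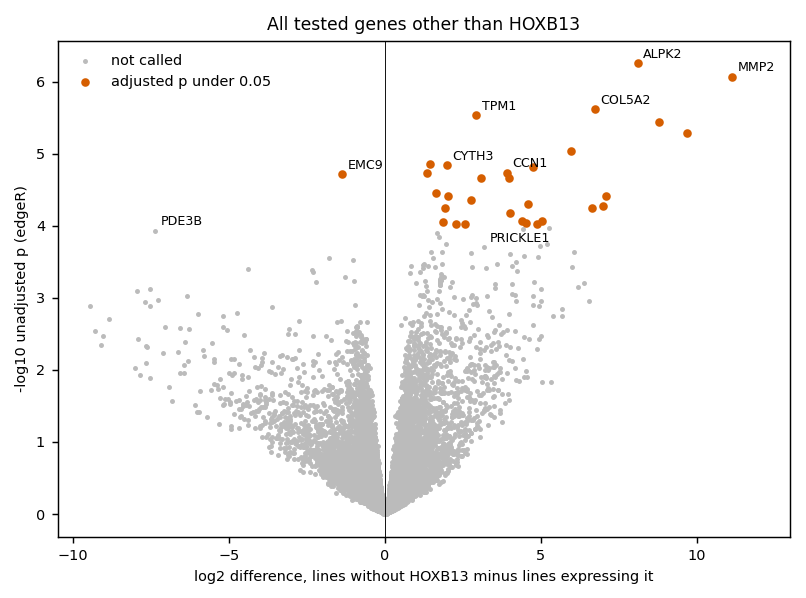
Each point is 1 of the 15172 tested genes, with the log2 difference (lines without HOXB13 minus lines expressing it) across and the negative log10 of the unadjusted edgeR p upward. Orange points are the 31 genes with an adjusted p under 0.05, of which 30 lie right of 0 and EMC9 lies left of it.

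The matrix genes MMP2, COL5A2 and FBN1 each differed widely and were high in few of the 6 lines. MMP2, a gelatinase that cuts collagen, had 3828 CPM in HuH28, 1404 in TGBC2TKB, 2.50 in SNU-1079, 1.87 in HuCCT1, 0.146 in G415 and 0 in TKKK, against 0 to 1.24 CPM (median 0.195) in the expressing lines. Its log2 difference was 11.13 (SE 1.6, adjusted p = 0.00642), and 4 of 6 lines without HOXB13 lay above every expressing line. Medians were 2.19 CPM in the lines without HOXB13 and 0.195 CPM in the expressing lines, so the fitted difference reflects HuH28 and TGBC2TKB far more than the other lines. COL5A2, a fibrillar collagen chain, had 1494 CPM in HuH28, 106 in HuCCT1, 15.9 in G415, 10.7 in TGBC2TKB, 7.76 in SNU-1079 and 0.844 in TKKK, against 0.692 to 11.96 CPM (median 1.33) in expressing lines. Its log2 difference was 6.74 (SE 1.04, adjusted p = 0.0108). The 2 sets of lines overlapped in COL5A2. FBN1, the fibrillin of elastic microfibrils, had 1126 CPM in HuH28, 209 in G415, 72.1 in TKKK, 68.5 in TGBC2TKB, 1.58 in SNU-1079 and 1.19 in HuCCT1, against 0.158 to 25.7 CPM (median 1.91) in expressing lines. It is the matrix gene in which TKKK was also high (log2 difference 5.98, SE 1.02, adjusted p = 0.0199), while SNU-1079 and HuCCT1 lay below the median of the expressing lines.

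THBS2 and TENM2 were high in HuH28 above all. THBS2, a secreted thrombospondin of the matrix, had 2955 CPM in HuH28 and 0.146 to 10.5 CPM in the other 5 lines without HOXB13, against 0.0799 to 3.27 CPM in expressing lines. Its log2 difference of 8.77 (SE 1.40, adjusted p = 0.0108) was 1.67 without HuH28, where it was not called. TENM2, a teneurin that joins cells across their membranes, had 2245 CPM in HuH28 and 105 in TGBC2TKB and at most 5.00 CPM in the other 4, against 0 to 3.73 CPM in expressing lines (log2 difference 9.70, SE 1.59, adjusted p = 0.0129). Both genes therefore describe HuH28, and TENM2 also TGBC2TKB, rather than all 6 lines. Of further matrix genes among the 30, chosen after their values were seen, the collagen VI chain COL6A3 had 248 CPM in HuH28 and 63.4 in TGBC2TKB, and the membrane metalloprotease ADAM12 had 379 and 178 CPM in the same lines. COL6A3 was tested in 16 of the 20 fits with 1 line left out and passed in 4, and ADAM12 passed in 9 of 20. HuH28 was the highest of all 20 lines for 19 of the 30 genes, G415 for 6, TKKK for 3 and SNU-1079 and TGBC2TKB for 1 each. HuH28 exceeded the next line more than 2-fold for 13 of them.

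TPM1, ALPK2 and PRKG1 are genes of the cytoskeleton and of kinase signalling, and 5 or 6 of 6 lines without HOXB13 exceeded the median of the expressing lines in each. TPM1, a tropomyosin that winds along actin filaments, had 101 CPM in G415, 625 in TKKK, 702 in TGBC2TKB, 728 in HuCCT1, 1179 in SNU-1079 and 1302 in HuH28, against 28.5 to 296 CPM in the expressing lines. It averaged 773 ± 430 CPM in lines without HOXB13 and 102 ± 75.2 CPM in expressing lines (SD, n = 6 and 14), a log2 difference of 2.92 (SE 0.459, adjusted p = 0.0108). In TPM1, 5 of 6 lines lay above every expressing line and G415 lay among them. ALPK2, an alpha-type protein kinase, had 210 CPM in HuH28, 145 in TGBC2TKB, 13.5 in HuCCT1, 5.18 in G415, 3.75 in SNU-1079 and 0 in TKKK, against 0 to 1.56 CPM (median 0.0870) in expressing lines. Its log2 difference of 8.11 (SE 1.13, adjusted p = 0.00642) had the smallest p of all genes tested, and of the 6 lines TKKK alone lay within the expressing range. PRKG1, a cGMP-dependent kinase of smooth muscle, had 29.2 CPM in TKKK, 22.0 in HuH28, 12.7 in G415, 5.96 in TGBC2TKB, 0.595 in HuCCT1 and 0.167 in SNU-1079, against 0 to 1.42 CPM in expressing lines (log2 difference 4.73, SE 0.843, adjusted p = 0.0218).

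CYTH3, FLCN and EDEM2 are genes of membrane traffic, nutrient sensing and protein quality control, and all 6 lines without HOXB13 exceeded the median of the expressing lines in each. CYTH3, an exchange factor for ARF GTPases at the plasma membrane, had 399 CPM in TKKK, 282 in G415, 158 in SNU-1079, 142 in HuH28, 125 in TGBC2TKB and 77.8 in HuCCT1, against 22.8 to 129 CPM (median 42.7) in expressing lines. FLCN, the folliculin tumour suppressor that acts at lysosomes, had 125 CPM in HuH28, 121 in G415, 112 in TKKK, 107 in SNU-1079, 78.0 in HuCCT1 and 66.4 in TGBC2TKB, against 18.2 to 83.4 CPM (median 33.1). EDEM2, a mannosidase of the endoplasmic reticulum that marks misfolded glycoproteins, had 188 CPM in TKKK, 159 in TGBC2TKB, 120 in HuH28, 91.7 in SNU-1079, 51.3 in G415 and 56.4 in HuCCT1, against 29.6 to 62.7 CPM (median 42.1). In each of these genes 4 of 6 lines lay above every expressing line. The log2 differences were 1.99 for CYTH3 (SE 0.352), 1.44 for FLCN (SE 0.256) and 1.34 for EDEM2 (SE 0.242), all at an adjusted p of 0.0218. Of all 30 genes, 13 had all 6 lines above the median of the expressing lines and 26 had at least 5. The 30 were called as higher in these same 6 lines, so such counts partly follow from that choice. No such count was made over all tested genes.

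**Figure D3:**
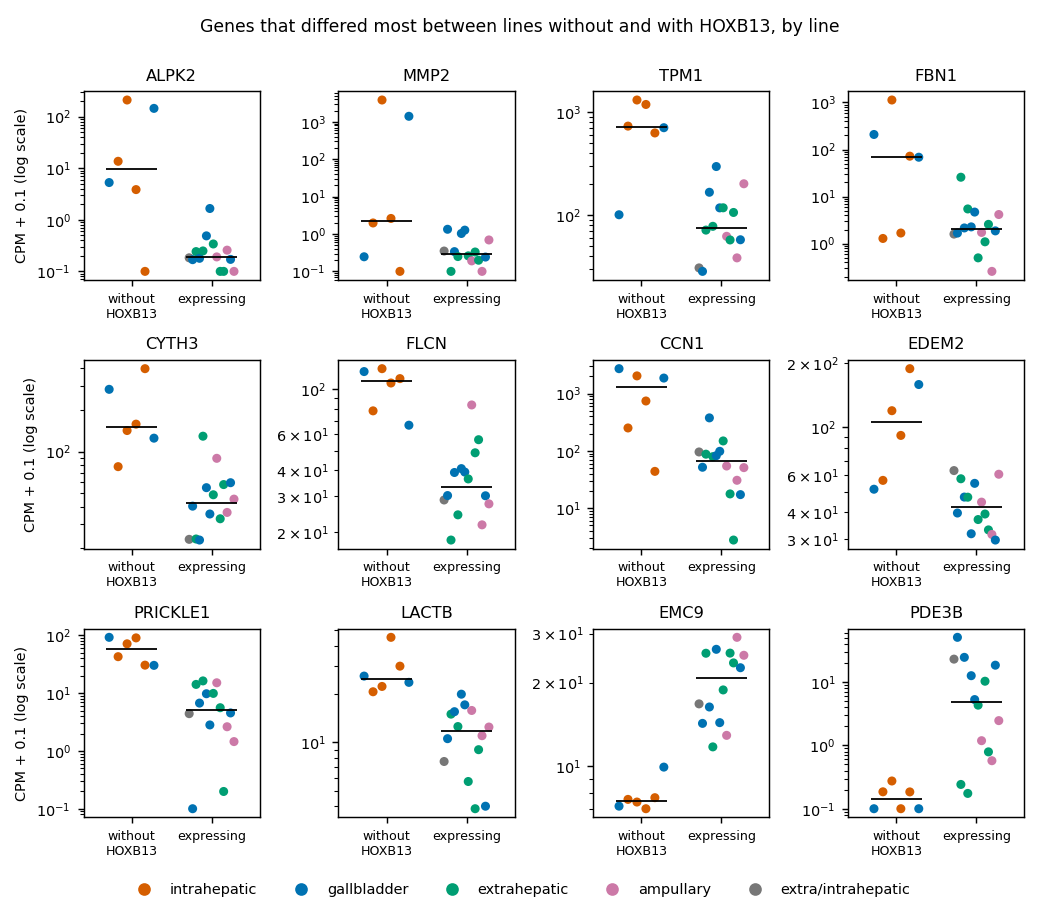
CPM plus 0.1 on log scales in each line for 12 genes, with the 6 lines without HOXB13 left of the 14 expressing lines in every panel, points coloured by anatomical site and bars at the medians. MMP2 ranges from 0 to 3828 CPM among lines without HOXB13, whereas EMC9 keeps to 6.92 to 9.82 CPM there, below the 11.6 to 28.99 CPM of the expressing lines.

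Targets of the YAP coactivator, which reads out cell tension and contact, held called genes as well. CCN1, a secreted matrix protein and classical YAP target, had 2736 CPM in G415, 2047 in HuH28, 1875 in TGBC2TKB, 745 in SNU-1079, 252 in HuCCT1 and only 43.8 in TKKK, against 2.67 to 378 CPM (median 66.8) in expressing lines. Its log2 difference was 3.91 (SE 0.704, adjusted p = 0.0218), and TKKK lay below the median of the expressing lines. CRIM1, a transmembrane antagonist of bone morphogenetic proteins, had 105 to 1935 CPM (median 525) in lines without HOXB13 and 42.6 to 335 CPM (median 141) in expressing lines (log2 difference 2.28, adjusted p = 0.0466). CRIM1 and TAGLN were near the threshold, and passed with 4 and 8 of the 20 lines left out in turn. CCN2, a near relative of CCN1, did not pass at a log2 difference of 3.32 (adjusted p = 0.158). Of 22 YAP targets tested, 2 rose and 0 fell, 6 had an unadjusted p under 0.05 upward and 1 downward, and the median log2 difference was 0.84. Over all tested genes the shares were 0.198%, 0.00659%, 6.02% and 4.51%, and the median was -0.04.

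Among mesenchymal markers every tested difference was above 0. Of 30 listed genes 22 were tested, 4 rose (MMP2, COL5A2, FBN1 and TAGLN), 0 fell, 13 had an unadjusted p under 0.05 upward, and the median log2 difference over the 22 was 2.36. Over all tested genes, 0.198% rose, 6.02% had such a p upward and 46.7% of differences were above 0. Some members, such as ZEB2 and CDH2, had medians of 0.0833 and 0.211 CPM in the expressing lines. Such genes could pass the filter on low counts through lines where they were high. The direction and median of the 22 may therefore partly reflect the filter. TAGLN, an actin-binding protein of smooth muscle, had 1991 CPM in HuH28 and 7.42 to 72.2 CPM in the other 5 lines, against 1.77 to 38.0 CPM in expressing lines (log2 difference 4.595, SE 0.899, adjusted p = 0.0376). Of 30 epithelial genes tested, 0 rose and 0 fell, none had an unadjusted p under 0.05, and 28 differences were below 0 with a median of -1.09. ELF3, an epithelial transcription factor, and CLDN3, a tight junction protein, had log2 differences of -2.33 (adjusted p = 0.473) and -2.60 (adjusted p = 0.506).

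A score of epithelial minus mesenchymal genes, in mean log2 units centred on each gene, was -11.3 in HuH28, -5.20 in G415, -5.09 in TGBC2TKB, -4.09 in SNU-1079, near 0 in HuCCT1 (0.0896) and 4.31 in TKKK, against -5.78 to 5.90 (median 2.96) in the expressing lines. It was below 0 in 4 of 6 lines without HOXB13 and in 4 of 14 expressing lines, so mesenchymal lines occurred in both classes and TKKK was among the more epithelial lines. With that score as a covariate, no gene was called by edgeR in either direction (0 genes), while 1088 had an unadjusted p under 0.05. The log2 difference was then 6.27 for MMP2 (adjusted p = 0.644), 1.90 for CCN1 (adjusted p = 0.629), 2.50 for TPM1 and 2.15 for CYTH3 (both adjusted p = 0.164), and 1.45 for FLCN (adjusted p = 0.317). The part of the mesenchymal state in the called genes was not tested beyond this fit, and the score holds 4 of the called genes.

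Anatomical site and HOXB13 class cannot be told apart over most of the series. With site as a covariate, the edgeR fit gave 0 calls, and 697 genes had an unadjusted p under 0.05. Within the gallbladder lines alone, 2 without HOXB13 against 5 expressing it, edgeR called 0, with 564 at an unadjusted p under 0.05. Both fits draw the class difference from these same gallbladder lines, since no other site holds both classes. ALPK2, for instance, was at 7.41 with site as a covariate and at 7.39 in the gallbladder lines. The gallbladder differences were 9.84 for MMP2 (SE 2.14), 7.39 for ALPK2 (SE 1.57), 4.22 for CCN1 (SE 1.00), 2.30 for CYTH3 (SE 0.478), 1.43 for FLCN (SE 0.372), 1.58 for TPM1 (SE 0.939) and -1.13 for EMC9 (SE 0.570), with adjusted p of at least 0.784. These had the same direction as over all lines, but the genes were chosen in a fit that holds these same gallbladder lines. Without the intrahepatic lines, 42 genes were called higher and 1 lower, of which 8 were among the 31. With repository as a covariate 4 rose and 0 fell, and the 4 were ALPK2, CCN1, SLC26A2 and TPM1. With origin as a covariate 18 rose and 1 fell.

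**Figure D4:**
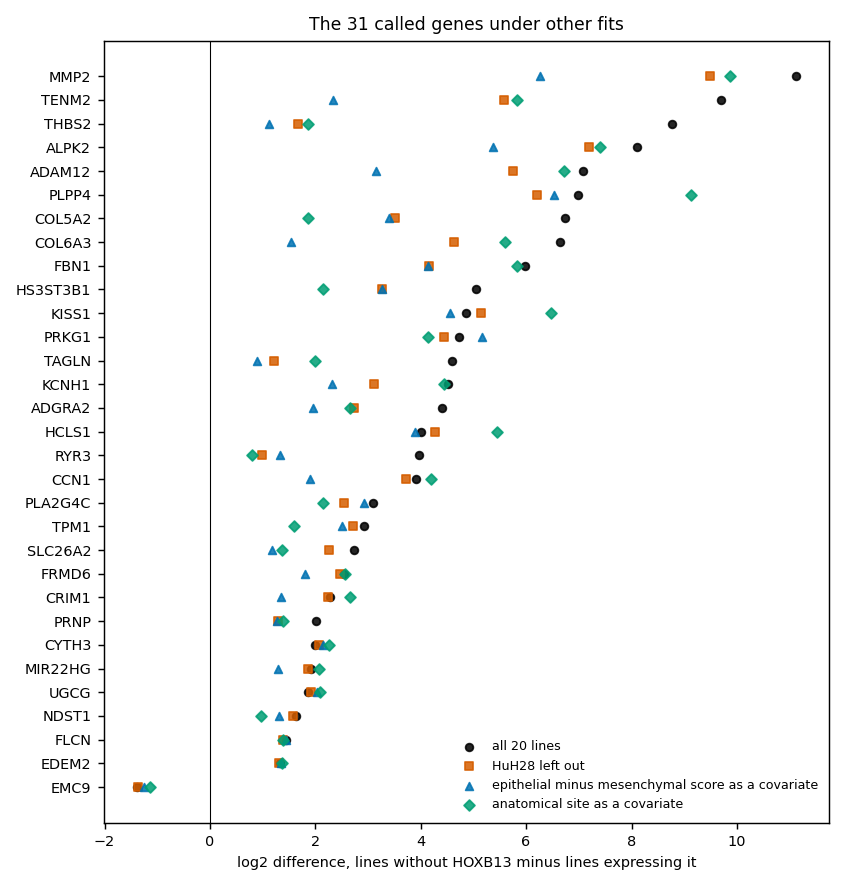
Log2 difference, lines without HOXB13 minus lines expressing it, of the 31 called genes in the fit over all 20 lines (black) and with HuH28 left out, the epithelial minus mesenchymal score as a covariate or anatomical site as a covariate. All 31 stay on their side of 0 in these fits, which share lines. THBS2 stands at 1.67 without HuH28 and at 8.77 with it, and CYTH3 at 2.06 and 1.99.

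The one gene called lower, EMC9, encodes a subunit of the complex that inserts membrane proteins into the endoplasmic reticulum. It had 9.82 CPM in TGBC2TKB, 7.59 in TKKK, 7.49 in HuCCT1, 7.32 in HuH28, 7.07 in G415 and 6.92 in SNU-1079, against 11.6 to 28.99 CPM (median 20.6) in the expressing lines. The 2 classes did not overlap, and 5 of the 6 low values lay between 6.92 and 7.59 CPM. The log2 difference was -1.38 (SE 0.251, adjusted p = 0.0218), and its call was lost without HuH28 (adjusted p = 0.0924) and without SNU-1079 (adjusted p = 0.0525). EMC9 lies on chromosome 14 next to the proteasome activator genes PSME1 and PSME2. PSME2 had a log2 difference of -1.001 (adjusted p = 0.101) and PSME1 of -0.70 (adjusted p = 0.411), and PCK2, DCAF11 and RNF31 were at -0.93, -0.63 and -0.43. Of the 10 genes within 5 places of EMC9 7 were tested and none was called, and these 5 had an unadjusted p under 0.05 downward, against 4.51% of all tested genes. They were looked at after EMC9 was called. EMC9 was also the gene whose level across the 20 lines was most like that of HOXB13, with a Pearson r of 0.890 in log2 CPM, and r was 0.447 over the 14 expressing lines. The next were OSR2 (0.754), HADH (0.743), MTFP1 (0.741) and EMSLR (0.739), with 0.362, 0.202, 0.240 and 0.407 over the 14. The lines share their libraries between genes, so these values are descriptions, and the values over 20 lines include the split itself.

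Genes with no overlap between the classes numbered 3 above (0.0198% of those tested) and 2 below (0.0132%). PRICKLE1, a planar cell polarity protein, had 92.8 CPM in G415, 90.8 in SNU-1079, 71.6 in HuH28, 42.9 in HuCCT1, 30.5 in TKKK and 30.3 in TGBC2TKB, against 0 to 16.2 CPM (median 4.99) in expressing lines. Its gap was the widest, yet its log2 difference of 3.17 (SE 0.702) did not pass (adjusted p = 0.0749). LACTB, a mitochondrial protein, had 20.6 to 45.1 CPM in lines without HOXB13 and 3.75 to 19.9 CPM in expressing lines (adjusted p = 0.101). CTNS, the cystine exporter of lysosomes, had 35.1 to 60.2 CPM in lines without HOXB13 and 13.2 to 34.9 CPM in expressing lines (adjusted p = 0.0927), a margin of under 1 CPM. SCAF4, which binds RNA polymerase II and guards transcript ends, had 27.5 to 51.6 CPM in lines without HOXB13 and 53.4 to 98.1 CPM in expressing lines (adjusted p = 0.192). The 5 genes became 21 without TKKK, 10 without HuCCT1, 9 without Mz-ChA-2 and 8 without G415.

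The upstream sequences of EMC9, the one gene called lower, and PRICKLE1, the gene with the widest gap, are shown because no line of one class entered the range of the other. Each is the 250 bases before the start of the gene in RefSeq on GRCh38.p14, read 5′ to 3′ on the minus strand, with CG dinucleotides in capitals. EMC9 is at chr14:24141592-24141841 and PRICKLE1 at chr12:42483616-42483865. For both genes, the bases just after this start were not found near the start of any GENCODE transcript of the gene. The starts therefore rest on RefSeq alone.
EMC9: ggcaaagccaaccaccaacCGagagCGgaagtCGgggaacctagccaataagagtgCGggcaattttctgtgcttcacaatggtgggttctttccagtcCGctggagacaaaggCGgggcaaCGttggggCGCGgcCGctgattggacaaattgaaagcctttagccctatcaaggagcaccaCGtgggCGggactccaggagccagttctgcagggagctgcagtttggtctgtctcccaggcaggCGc
PRICKLE1: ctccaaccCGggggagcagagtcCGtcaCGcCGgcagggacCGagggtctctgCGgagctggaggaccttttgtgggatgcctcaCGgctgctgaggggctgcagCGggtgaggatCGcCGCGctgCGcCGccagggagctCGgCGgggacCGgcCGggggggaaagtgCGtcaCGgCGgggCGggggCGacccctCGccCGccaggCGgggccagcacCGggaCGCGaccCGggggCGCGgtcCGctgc

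The EMC9 stretch held 13 CG dinucleotides and the PRICKLE1 stretch 32, against a median of 20 over the 11754 tested genes with a promoter in the table. Of the 31 called genes 23 had one, with a median of 17. The TEAD motif GGAATG, through which YAP acts, was found on either strand in 4 of the 23 (17.4%), those of TENM2, THBS2, CYTH3 and FBN1, and in 9.54% of all. The HOX13-type motifs CAATAAA and TCGTAAA were found on either strand in 0 of the 23, and in 2.14% and 0.502% of all. A match is a description of these letters and not a binding site.

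Genes lower in lines without HOXB13 did not otherwise pass, and the next by p were of metabolism, the clock and epithelial membranes. PDE3B, a phosphodiesterase of insulin and cAMP signalling, had 0.174 CPM in HuH28, 0.0851 in HuCCT1, 0.0844 in TKKK and 0 in G415, SNU-1079 and TGBC2TKB, against 0.0745 to 51.1 CPM (median 4.73) in expressing lines. Its log2 difference of -7.38 (SE 1.56) had an adjusted p of 0.0521. PER2, a repressor of the circadian clock, had 4.11 to 19.2 CPM (median 10.5) in lines without HOXB13 and 9.24 to 74.1 CPM (median 30.6) in expressing lines (adjusted p = 0.0874). HADH, an enzyme of mitochondrial fatty acid oxidation, had 21.0 to 36.9 CPM in lines without HOXB13 and 31.1 to 105 CPM in expressing lines (adjusted p = 0.0889). TSPAN1, an epithelial tetraspanin, had 1.31 to 23.04 CPM (median 9.22) in lines without HOXB13 and 1.17 to 529 CPM (median 191) in expressing lines (adjusted p = 0.0927). In TSPAN1 and HADH the ranges overlapped at the bottom of the expressing lines.

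No other gene of the HOXB cluster passed the test. Of 13 HOXB members 10 were tested, of which 0 rose, 0 fell and 1 had an unadjusted p under 0.05, with 9 differences below 0 and a median of -0.99. Over all tested genes 10.5% had such a p and the median was -0.04. HOXB7 had 44.5 CPM in TKKK, 27.3 in TGBC2TKB, 20.1 in G415, 11.8 in SNU-1079, 11.3 in HuH28 and 0.340 in HuCCT1, against 7.60 to 74.5 CPM in expressing lines (log2 difference -1.17, adjusted p = 0.472). HOXB8 and the antisense transcript HOXB-AS3 had log2 differences of -2.41 (adjusted p = 0.577) and -1.89 (adjusted p = 0.473), and reads of HOXB-AS3 may not be separable from those of its sense neighbours. The sum over 9 HOXB genes other than HOXB13 ran from 52.8 CPM in SNU-1079 to 531 CPM in HuCCT1 among lines without HOXB13, and from 14.01 CPM in Mz-ChA-2 to 1390 CPM in EGI-1 among expressing lines. Lines without HOXB13 thus kept active HOXB genes, and Mz-ChA-2 expressed HOXB13 at 2.93 CPM with the lowest HOXB sum of all lines. HOXB2 had a log2 difference of -0.69, HOXB3 of -0.57, HOXB4 of -1.17, HOXB5 of -0.82, HOXB6 of -1.19, HOXB9 of -0.67 and HOXB-AS1 of 0.61, with adjusted p of 0.682 or more. PRAC1, which lies between HOXB9 and HOXB13, was at 0 in 6 of 6 and in 13 of 14 lines, and HOXB1 and PRAC2 were too low to be tested.

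**Figure D5:**
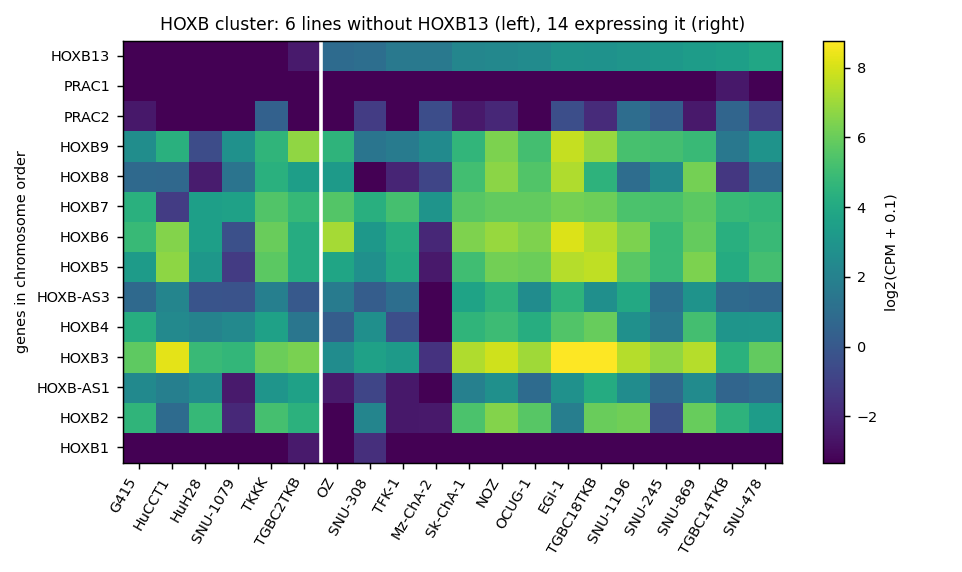
Log2 of CPM plus 0.1 for HOXB13, PRAC1, PRAC2 and 11 further HOXB entries in chromosome order (rows) in each line (columns), with the 6 lines without HOXB13 left of the white line. HOXB3, HOXB6 and HOXB7 are present in lines of both classes, and Mz-ChA-2 has HOXB13 at 2.93 CPM beside a HOXB sum of 14.01 CPM.

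No gene beside the cluster passed the test either. The 8 tested neighbours were CBX1, SNX11, SKAP1, TTLL6, CALCOCO2, ATP5MC1, UBE2Z and SNF8, and none was called, the smallest adjusted p being 0.671 for SNF8. UBE2Z, a ubiquitin-conjugating enzyme, had 147 to 204 CPM in lines without HOXB13 and 104 to 225 CPM in expressing lines.

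No gene of the other HOX clusters was called. Of 17 HOXA members 16 were tested, and 14 had differences below 0 (median -1.27), with HOTAIRM1, a noncoding transcript of the cluster, at -2.66 (adjusted p = 0.412). Of 14 HOXC members 10 were tested and all were below 0 (median -0.92). HOXC10 was at -3.11 and HOXC4 at -2.28 (both adjusted p = 0.449), and the 1 HOXD member tested was at -3.37. Some HOX members, the HOXD one included, had a median of 0 CPM in lines without HOXB13. Such genes could pass the filter on low counts through the expressing lines. The directions and medians of these lists may therefore partly reflect the filter. HuH28 had 0 of 11 HOXA and 0 of 9 HOXC genes at 1 CPM or more, with sums of 0.349 and 0.784 CPM beside a HOXB sum of 92.7 CPM. TKKK had a HOXA sum of 335 CPM, the highest of all 20 lines, and 11 of 11 HOXA genes at 1 CPM or more. Lines without HOXB13 therefore included both the lowest and the highest HOXA level. Of 15 posterior members, groups 9 to 13, 9 were tested and none was called.

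Partners and regulators of HOX genes gave no call. Of 8 HOX cofactors tested the median was -0.13, and MEIS2, a homeodomain partner of HOX proteins, had 4.10 to 30.5 CPM in lines without HOXB13 and 0.817 to 305 CPM in expressing lines (log2 difference -2.02, adjusted p = 0.369). Of 29 chromatin regulators of HOX loci the median was 0.01, with KMT2A, a histone methyltransferase that keeps HOX genes on, at 0.74 (adjusted p = 0.273) and ASXL1 at 0.63 (adjusted p = 0.325). Of 11 HOXB13 partners and prostate genes the median was -1.24. Among them TCF7L2, a transcription factor of WNT signalling, had 19.3 to 79.4 CPM in lines without HOXB13 and 28.1 to 173 CPM in expressing lines (log2 difference -1.42, adjusted p = 0.192). TRPM8, a cold-sensing channel of prostate epithelium, stood at 42.5 CPM in SNU-1079 and 31.7 in TGBC2TKB and at 4.18 or less in the other 4, against 0 to 5.99 CPM in expressing lines (log2 difference 3.55, adjusted p = 0.243).

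No lineage marker of gut or squamous epithelia was called. Only 8 of 14 gastric, 8 of 20 intestinal and 12 of 15 squamous genes were tested, and several passed the filter on low counts through the expressing lines alone, so no median is given for them. PSCA, a surface antigen of stomach and prostate, had 0.503 to 34.3 CPM in lines without HOXB13 and 0.158 to 2041 CPM (median 6.10) in expressing lines (log2 difference -5.35, adjusted p = 0.361). MUC5B, a secreted mucin, had a log2 difference of -5.16 (adjusted p = 0.422). The median was -1.05 for 16 of 17 WNT targets (2 at an unadjusted p under 0.05 downward) and -0.97 for 15 of 18 foregut and liver factors (1 downward), and 5 of 9 hindgut factors were tested with no call. Over all tested genes the median was -0.04 and 4.51% had such a p downward. Of the 2 WNT targets with such a p, 1 was at 0 CPM in every line without HOXB13. Such genes could pass the filter through the expressing lines, so these medians and counts may partly reflect the filter. RNF43, a WNT feedback gene, had 0 to 47.8 CPM in lines without HOXB13 and 1.01 to 524 CPM in expressing lines (log2 difference -2.996, adjusted p = 0.390). The expressing lines spread over orders of magnitude in these genes, and their low ends reached those of lines without HOXB13.

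Signalling lists gave no call. Over all tested genes the median was -0.04, with 6.02% upward and 4.51% downward at an unadjusted p under 0.05. The TGF-beta and receptor lists share members with the mesenchymal and YAP lists. Of 13 TGF-beta targets the median was 1.11 with 3 at an unadjusted p under 0.05 upward. Of 13 receptor kinases and targets the median was -0.05 with 3 upward, and FGFR1 and EGFR, growth factor receptors, had log2 differences of 2.79 (adjusted p = 0.124) and 1.45 (adjusted p = 0.217). FGFR1 stood at 460 CPM in SNU-1079, 194 in TGBC2TKB and 3.12 in TKKK, against 1.37 to 52.6 CPM in expressing lines. The medians were -0.45 for 19 interferon genes, -0.27 for 22 proliferation genes, 0.10 for 14 class I and -0.73 for 9 class II antigen presentation genes, and 0.05 for 22 tumour suppressors and oncogenes of bile duct cancer, 1 of which had an unadjusted p under 0.05, downward.

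Markers of other cell types were mostly too low to test. Of 13 immune, 12 endothelial, 20 hepatocyte and 12 fibroblast markers 3, 3, 4 and 4 were tested, and none was called. On the bile duct list 18 of 21 genes were tested, with a median of -0.54. That list shares ASGR1 with the hepatocyte list and TFF1 with the gastric list, and both were below 0. COL1A1, a collagen chain on the fibroblast list, had 8113 CPM in HuH28, 4155 in SNU-1079, 2057 in TGBC2TKB, 89.0 in HuCCT1, 2.19 in TKKK and 0.948 in G415, against 1.19 to 206 CPM in expressing lines (log2 difference 5.26, adjusted p = 0.0508). S100A4, a calcium-binding protein on the same list, went the other way, with 3.10 to 21.4 CPM in lines without HOXB13 and 9.82 to 1674 CPM in expressing lines (log2 difference -5.21, adjusted p = 0.174). Of 8 neuroendocrine and neural genes the median was 0.69, with SYP, a synaptic vesicle protein, at 1.66 (adjusted p = 0.202), the neuronal enolase ENO2 at 1.24 (adjusted p = 0.311) and UCHL1, a neuronal deubiquitinase, at -4.68 (adjusted p = 0.496), and 3 of the 8 were below 0. SYP stayed under 10 CPM in every line.

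Tumour origin is the label with several lines of both classes at each level. The interaction of HOXB13 class with origin, primary or metastatic, was called by edgeR for 0 genes, with 1210 at an unadjusted p under 0.05. Within primary tumour lines alone, 22 genes were higher and 5 lower in lines without HOXB13, of which 7 were among the 31 called over all lines.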

How the data were processed

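The authors deposited 1 table of whole-number read counts per RefSeq gene in 20 lines, not normalized. The submitters' processing notes name featureCounts, Picard 1.69, TopHat2 2.0.8 and Trimmomatic, and the builds hg19 and GRCh37. Which annotation release and strand setting were used is not given in the sources used here. Symbols were found for 23512 of 24222 entries in a RefSeq table and for 355 more in GENCODE, and unnamed entries held 0.484% of counts.

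HOXB13 classes used CPM of unscaled totals. All other CPM use TMM-scaled totals. Genes passing filterByExpr entered a fit in R 4.3.3 with edgeR 4.0.16 (TMM, robust quasi-likelihood F test, two-sided), p-values were adjusted over all tested genes other than HOXB13, and the SE is the log2 difference over the root of F. Scripts were tested on simulated data. Log2 CPM for scores and correlations used a prior count of 2. The members, lists, tests and alternatives were chosen with earlier results of these data known.

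Named genes are the 12 called genes of smallest p per direction (with fewer than 5, the 5 of smallest p), up to 5 per direction without overlap, the HOXB genes and 5 neighbours per side, 2 to 4 members of smallest p per list, and the 5 most like HOXB13. Some genes that met this rule are not reported here. Alternatives were other scalings, tools (DESeq2 1.42.0, limma 3.58.1), filters, covariates and subsets, and each line left out.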

Additional observations from a re-analysis of the deposited data

Results flagged for a closer look

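In 7 of 51 genes examined 1 of the 6 lines without HOXB13 stood apart from the other 5 by Dixon's criterion, applied to log2 of CPM plus 0.5. Chance gives about 1 such gene in 20 where genes are not chosen by these data. Many of the 51 were chosen by their values in these same lines, so the 7 cannot be set against that rate. TPM1 was at 100.9 CPM in G415 and at 624.9 to 1302 CPM in the other 5. HuH28 had 2955 CPM of THBS2, where the others had at most 10.5 CPM, and EMC9 was at 9.82 CPM in TGBC2TKB and 6.92 to 7.59 CPM in the others. HOXB7 was at 0.340 CPM in HuCCT1 and 11.3 to 44.5 CPM in the others, HOXC4 at 4.05 CPM in TKKK and at most 0.584 CPM in the others, SCAF4 at 27.5 CPM in TKKK and 45.1 to 51.6 CPM in the others, and EMSLR, a long noncoding RNA, at 5.10 CPM in HuCCT1 and at most 0.729 CPM in the others.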

How the results depend on the processing

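Of the 31 called genes, all that could be measured kept their direction under every alternative run, each of which shares lines with the fit that chose them. Called higher against called lower, the counts were 30 and 1 in the fit over all lines, 146 and 106 with DESeq2, 6 and 0 with limma-voom, 388 and 14 with no filter on low counts, 32 and 2 with non-robust dispersion, 4 and 0 with repository, 18 and 1 with origin, and 46 and 5 with the HOXB13 level as a slope. They were 0 and 0 with site, with the epithelial minus mesenchymal score, in gallbladder lines only and in RIKEN lines only, 23 and 0 without the gallbladder lines that lack HOXB13, 22 and 5 in primary tumour lines only, and 2 and 0 without HuH28. In the RIKEN lines 480 genes had an unadjusted p under 0.05. Leaving out 1 line at a time gave 2 to 100 genes higher, 0 to 4 lower, 4 to 21 without overlap and 0 to 1 for the interaction with origin. Reversed log2 differences were 0.55 for CLDN3 (adjusted p = 0.918) and -0.45 for CCN2 (adjusted p = 0.952) with the epithelial minus mesenchymal score, and 0.96 for MUC5B and 1.82 for MEIS2 in RIKEN lines only. The cause of these changes was not tested. Among single genes 792 values kept direction and, where an adjusted p was given, side of the threshold, 133 lost and 38 gained a call. No paired analysis was possible because the classes are made of different lines. At 10.47 to 15.41 M counts per line a count of 0 leaves room for 0.195 to 0.287 CPM.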

Other observations

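Genes at an unadjusted p under 0.05 were spread unevenly over the chromosomes. Of the genes tested on each chromosome, the share lower in lines without HOXB13 was 11.6% on chromosome 15, 9.86% on chromosome 21 and 8.62% on chromosome 9, against 4.51% of all tested genes. The share higher was 10.2% on chromosome 5, 9.05% on chromosome 18 and 8.85% on chromosome 11, against 6.02% of all tested genes. The median log2 difference was -0.20 on chromosome 15 and 0.09 on chromosome 5. Gene dosage was not measured.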
